A study of Mus musculus with 108 samples.

Results

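The genes described here are those of the cytosolic ribosomal proteins, in the developing and adult brain of wild-type (WT) and Cul3+/- mice. They were chosen by symbol: every protein-coding row of the gene table whose symbol is Rpl or Rps followed by a number (with a paralog letter or suffix where there is one), together with Rpsa, Rplp0, Rplp1 and Rplp2. The rule found 84 genes of 53465 rows, 32 of the small subunit and 52 of the large subunit. Of these, 81 had enough counts to be tested in every comparison, and Rpl3l, Rpl10l and Rpl39l did not. Another 6 rows whose symbols fit the pattern are annotated as pseudogenes and were left out.

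The study asked how loss of 1 copy of Cul3, the scaffold of a family of ubiquitin ligases, changes the developing brain. Total RNA, depleted of ribosomal RNA, was sequenced from 3 brain regions of the same mice, the cerebellum (CB), the hippocampus (HIP) and the cortex (CX), at embryonic day E17.5, postnatal day P7 and adulthood (P35). In each period there were 6 WT and 6 Cul3+/- mice, so that 36 mice gave 108 libraries. All mice were on a background labelled C56Bl/6N, and the Cul3+/- mice carried a 1-bp frameshift insertion in exon 6 of Cul3 in every cell, made with CRISPR/Cas9 and bred from a single founder. The 2 adult mice P35_22 (labelled Cul3+/-) and P35_23 (labelled WT) are listed with the opposite genotype in the study's own sample sheet and were left out of all comparisons, which leaves 5 adult mice a genotype. Their Cul3 levels went with their GEO labels. Mice of different periods were collected separately, so age and collection cannot be told apart.

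The cytosolic ribosome is built from a small subunit, which holds the mRNA and reads its codons, and a large subunit, which joins the amino acids. Each of its proteins is needed in about the same number of copies, the pool of ribosomal protein mRNAs is among the largest in a growing cell, and many of these mRNAs begin with a C followed by a run of pyrimidines, the TOP (terminal oligopyrimidine) motif, through which mTOR signalling controls their translation. Proliferating neural progenitors, which make ribosomes for every division, are abundant in the embryonic forebrain and, as granule cell precursors, in the cerebellum of the first postnatal weeks.

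The start of the mRNA is shown for some of the members described below, where a RefSeq promoter was matched. RefSeq promoters (GRCm38.p6) were matched to 64 of the 84 members by symbol, giving 76 annotated start sites. A C at the annotated start followed by at least 4 pyrimidines (C or T, read on the strand of the gene) stood at 13 of these 76 starts (17.1%), compared with 823 of 32851 starts of all genes (2.51%). A run of at least 8 pyrimidines beginning with C within 10 bases of the start was found at 31.6% of member starts and 8.11% of all starts. In the sequences, which run from 10 bases before the start to 20 bases from it, capitals mark the run that begins at the start. They show members with the run:
Rps27 (chr3:90213629-90213658, minus strand): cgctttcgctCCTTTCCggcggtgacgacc
Rps21 (chr2:180257369-180257398, plus strand): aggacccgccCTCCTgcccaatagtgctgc
Rps15a (chr7:118116128-118116157, minus strand): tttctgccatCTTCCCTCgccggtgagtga
Rps6 (chr4:86857348-86857377, minus strand): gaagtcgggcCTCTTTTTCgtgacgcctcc
The next members have no such run at the annotated start, which says only that these letters are not at that position:
Rps27l (chr9:66946076-66946105, plus strand, the first of its 2 annotated starts): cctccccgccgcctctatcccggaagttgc
Rpl22l1 (chr3:28805498-28805527, plus strand): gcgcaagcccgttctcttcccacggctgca
Rplp0 (chr5:115559457-115559486, plus strand): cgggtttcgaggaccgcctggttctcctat
Rps2 (chr17:24720053-24720082, plus strand): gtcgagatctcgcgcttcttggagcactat
All 13 members with the run were tested. Their median log2 fold change and that of the 48 matched and tested members without it lay close together in every step between periods. Examples are -0.83 and -0.87 from E17.5 to P7 in the WT cortex and -1.26 and -1.38 from P7 to P35 in the WT cerebellum. Since the run was sought only at the annotated start, the groups need not differ in the TOP motif, and nothing follows about it.

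The libraries held 15126114 to 44411282 counts, with a median of 32663960. Levels are given as CPM, the counts brought to a common library size with TMM factors across all 108 libraries. Without the mice P35_22 and P35_23, Cul3 was at 154 to 221 CPM in the WT libraries and 83 to 129 in the Cul3+/- libraries, with no overlap in any of the 9 combinations of period and region. The summed cerebellum markers lay at 828 CPM or more in every WT cerebellum and at 275 or less in WT cortex and hippocampus, whereas the summed hippocampus markers were higher in the cortex than in the hippocampus at P7 and P35. In WT cortex and hippocampus the medians of this sum of 4 genes were 1726 and 793 CPM at P7, and 1156 and 623 at P35. At E17.5 they were 836 and 1112 CPM. Of that list, Prox1, the marker of dentate granule cells, was higher in the hippocampus at every age (log2 fold change of 3.03 or more). The other genes of the list are not given separately here, so Prox1 alone does not establish how clean the hippocampal dissections were. The choroid plexus markers ranged from 4.15 to 4617 CPM among the WT hippocampi at E17.5, so that the dissections differed in how much of this tissue they held, and their part in the results was not tested.

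The members differed widely in level among themselves. Per kilobase of annotated transcript, the median member stood at 284.6 CPM over the WT libraries, and 70 of the 84 members were above 100. The highest were Rplp1 (620 CPM per kb), an acidic protein of the stalk to which elongation factors bind, Rps29 (591) and Rps24 (510). The lowest were Rpl10l, listed at 0 in every library, Rpl39l (0.0241) and Rpl3l (0.0508), paralogs known from testis and from striated muscle. The small subunit's share of the summed member CPM lay between 38.3% and 42.3% in every library. Since 60 members have pseudogene rows in the table (293 rows), reads can be divided between gene and copy. These rows together held between 1.27% and 1.70% of the summed member CPM in every library of the comparisons. Only rows whose symbol is that of a member followed by -ps were counted. Copies under other symbols are not in this sum, so it is a lower bound.

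Summed over the members, the level was highest in the embryonic cortex and lowest in the adult cerebellum. In the WT cortex the summed level was 25667 ± 2592 CPM (SD, n = 6) at E17.5, 14514 ± 1887 (n = 6) at P7 and 11538 ± 700 (n = 5) at P35. Single E17.5 cortices lay between 22714 and 30366 and P7 cortices between 10864 and 16365, so the first 2 periods did not overlap. In the WT hippocampus the means were 21482, 16369 and 13659 CPM at E17.5, P7 and P35. The cerebellum followed another course, with 21370 ± 1759 CPM at E17.5, 23782 ± 2525 at P7 and 9236 ± 1100 at P35. The 5 adult WT cerebella held 7288, 9513, 9648, 9807 and 9925 CPM, all below the lowest P7 cerebellum, which held 20256.

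**Figure D1:**
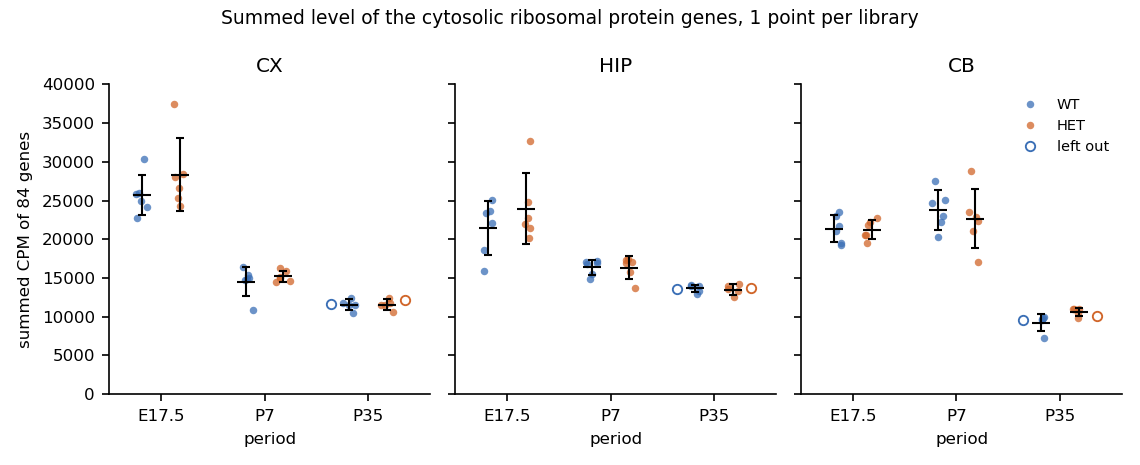
Summed CPM of the 84 ribosomal protein genes in each library (points), by region (panels), period (x axis) and genotype (colour), with the group mean and SD. Open symbols are the 2 mice whose genotype is disputed; cortex and hippocampus fall over both steps, and the cerebellum falls only after P7, from a WT mean of 23782 to 9236 CPM.

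Other measures also changed over the periods. The 7 markers of proliferating progenitors, none of them at 0, summed to 487 to 1134 CPM at E17.5, 113 to 153 at P7 and 65.8 to 75.1 at P35 in the WT cortex, and to 910 to 1084, 917 to 1192 and 37.6 to 43.1 in the WT cerebellum. In the WT hippocampus these progenitor markers summed to 712 to 1372, 197 to 255 and 74.7 to 80.6 CPM. Between regions at E17.5 they did not follow the summed level, which was highest in the cortex. Their WT medians at that age were 636 CPM in the cortex, 792 in the hippocampus and 975 in the cerebellum. The oligodendrocyte markers rose from 30.1 to 42.7 CPM in the WT cortex at E17.5 to 3579 to 4678 at P35. Mitochondrially encoded transcripts held 1.06% to 1.19% of the counts at E17.5, 1.34% to 2.11% at P7 and 5.33% to 5.96% at P35 in the WT group means. Their part in the result was not tested. In bulk tissue fewer cells of a type and less RNA per cell cannot be told apart.

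From E17.5 to P7 the ribosomal protein genes fell together in the WT cortex. At an adjusted p of at most 0.1 (edgeR quasi-likelihood test, adjusted over all genes by Benjamini-Hochberg), 77 of 81 members were lower at P7 and none was higher, compared with 40.6% of all genes called lower and 41.3% called higher. The median log2 fold change was -0.88, against 0.01 for all genes, and the P7 and E17.5 libraries did not overlap for 75 members, against 58.9% of all genes. Rpl7, a large-subunit protein, had 562 to 780 CPM at E17.5 (median 662) and 203 to 314 at P7 (median 280). Its log2 fold change was -1.27 ± 0.09 (SE, adjusted p = 3.7e-10). Rps15a, of the small subunit, was at 320 to 452 CPM (median 362) and then at 121 to 177 (median 165), a log2 fold change of -1.21 ± 0.09 (adjusted p = 1.6e-09). For both genes every P7 cortex lay below every E17.5 cortex.

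The 4 members that were not called in this step were Rps2, Rplp1, Rpl22l1 and Rps16. Rps2, which lies at the entry of the mRNA channel, stood at 474 to 648 CPM at E17.5 (median 509) and 416 to 543 at P7 (median 521), a log2 fold change of -0.07 ± 0.09 (adjusted p = 0.51). Rplp1 was at 317 to 412 CPM (median 347) and 290 to 411 (median 369), a log2 fold change of 0.05 ± 0.08 (adjusted p = 0.57). For both genes the ranges of the periods overlapped, in contrast with those of Rpl7 and Rps15a.

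In the second step, from P7 to P35, the cortex fell less and less uniformly. Of the 81 members 53 were called lower and 4 higher, compared with 34.5% and 33.2% of all genes, and the median log2 fold change was -0.33. The groups did not overlap for 20 members, 19 of them lower, against 48.3% of all genes. Rplp0, the scaffold protein of the stalk, had 743 to 1006 CPM at E17.5 (median 831), 304 to 456 at P7 (median 412) and 152, 152, 163, 163 and 169 in the 5 adult cortices. It fell by 1.05 ± 0.09 on the log2 scale in the first step (adjusted p = 3.3e-09) and by 1.37 ± 0.09 in the second (adjusted p = 4.7e-10), and no library of 1 period overlapped with those of the next. Rps2, level until P7, then fell to 216, 234, 273, 277 and 287 CPM, a log2 fold change of -1.004 ± 0.10 (adjusted p = 5.4e-08). Rpsa, the small-subunit protein also known as the laminin receptor precursor, fell by 1.05 ± 0.09 (adjusted p = 1.3e-08).

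Rps21, a small protein of the small subunit, moved the other way. It had 124 to 161 CPM at E17.5 (median 136), 57.9 to 94.8 at P7 (median 87.5) and 107, 124, 127, 130 and 131 in the adult cortex. The log2 fold changes were -0.74 ± 0.10 (adjusted p = 1.7e-06) and then 0.54 ± 0.10 (adjusted p = 1.6e-04), and it was the only member whose adult and P7 cortices did not overlap with the adult higher. Rpl9 was also called higher in the adult cortex (0.33 ± 0.10, adjusted p = 0.011), with overlapping groups. Rpl3, a protein near the catalytic centre, stayed level, at 334 to 460 CPM at P7 and 390 to 453 at P35 (log2 fold change -0.01 ± 0.08, adjusted p = 0.88).

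The hippocampus showed smaller steps. From E17.5 to P7, 68 of 81 members were called lower and 2 higher (39.1% and 38.9% of all genes), with a median log2 fold change of -0.41, and the groups did not overlap for 20 members, all lower (49.8% of all genes did not overlap). From P7 to P35, 48 were called lower and 5 higher (31.5% and 31.3% of all genes), with a median of -0.26, and 40 members were lower and 5 higher with no overlap (50.7% of all genes). Rplp0 held 490 to 767 CPM at E17.5 (median 704), 432 to 520 at P7 (median 499) and 200 to 217 at P35 (median 208), and fell by 1.24 ± 0.10 in the second step (adjusted p = 7.3e-09). The 5 that did not overlap and were higher in the adult included Rps21 (0.56 ± 0.11, adjusted p = 2.2e-04), which went from 91 to 103 CPM at P7 to 133 to 155 at P35, and Rpl9 (0.27 ± 0.11, adjusted p = 0.042) and Rpl37 (0.22 ± 0.10, adjusted p = 0.066).

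In the cerebellum, few members fell in the first step and nearly all fell in the second. From E17.5 to P7, 39 of 81 members were called higher and 1 lower in WT mice, compared with 35.7% and 35.5% of all genes, so that the share called higher was not far from that of all genes. The median log2 fold change was 0.15, and the groups did not overlap for 4 members that were higher and 1 that was lower (47.1% of all genes). Rpl36, of the large subunit, had 92 to 116 CPM at E17.5 (median 111) and 120 to 158 at P7 (median 141), a log2 fold change of 0.41 ± 0.08 (adjusted p = 3.3e-04). Every P7 cerebellum lay above every E17.5 cerebellum for this gene.

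From P7 to P35, 80 of the 81 members were called lower in the WT cerebellum and none higher, compared with 39.4% and 40% of all genes. For the same number, 80, no adult cerebellum overlapped with a P7 cerebellum (59.2% of all genes), and the median log2 fold change was -1.38, against 0.01 for all genes. Rplp0 went from 633 to 860 CPM at P7 (median 762) to 158, 178, 179, 182 and 187 at P35, and fell by 2.12 ± 0.08 on the log2 scale (adjusted p = 1.7e-14). Rps26, which contacts the mRNA at the exit channel, went from 150 to 185 CPM (median 170) to 35.5, 38.6, 40.4, 41.7 and 43.9, and fell by 2.10 ± 0.07 (adjusted p = 5.4e-15). Rps4x, encoded on the X chromosome, fell by 1.89 ± 0.10 (adjusted p = 4.6e-12). None of the adult libraries came near the P7 range for these genes. Rpl22l1 was the member that was not called (-0.14 ± 0.14, adjusted p = 0.37).

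**Figure D2:**
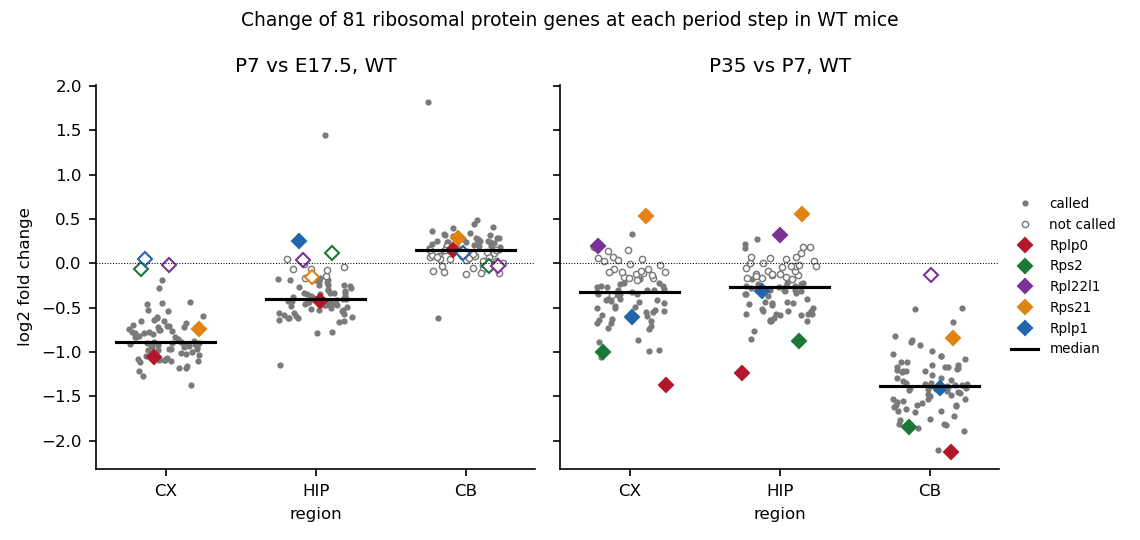
log2 fold change of each of the 81 tested members (points) in WT mice from E17.5 to P7 (left panel) and from P7 to P35 (right panel), by region, with the median as a line. Filled points passed an adjusted p of 0.1, open points did not, and 5 members are marked as diamonds; the median from P7 to P35 is -1.38 in the cerebellum, -0.33 in the cortex and -0.26 in the hippocampus.

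In the Cul3+/- mice, a separate set of animals, the members fell in the same steps, and fewer of them were called higher in the first cerebellar step. In the cortex 78 members were called lower from E17.5 to P7 (42.4% of all genes) and 64 from P7 to P35 (37.3%), with medians of -0.94 and -0.40. In the hippocampus 76 (39.1% of all genes, with 40.1% called higher) and 48 (33.2%) were called lower, with medians of -0.58 and -0.29. In the cerebellum 21 were called higher and 3 lower from E17.5 to P7 (37.6% and 37.4% of all genes, so that the share of members called higher was below that of all genes), and 80 lower from P7 to P35 (39.7%), with medians of 0.07 and -1.11. The members called in both genotypes numbered 77 and 55 in the cortex, 69 and 50 in the hippocampus, and 21 and 80 in the cerebellum, all with the same sign. Of all genes, the shares called in either direction in WT and in Cul3+/- mice were 81.9% and 85.3% in the first cortical step, 67.7% and 73.1% in the second, 78% and 79.2% in the first hippocampal step, 62.7% and 65% in the second, 71.2% and 75.1% in the first cerebellar step, and 79.4% and 79.3% in the second. Across the 81 members, which are not independent replicates, the WT and Cul3+/- log2 fold changes had a Spearman rho of 0.95 to 0.99 in these steps.

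The difference between regions in these steps was tested as an interaction in WT mice, with the mouse as a block. From E17.5 to P7, 77 members changed by more, in the positive direction, in the cerebellum than in the cortex (34.3% of all genes), with a median difference of 1.03 on the log2 scale, and 72 did so in the hippocampus against the cortex (20.4%, median 0.47). The cerebellum against the hippocampus gave 71 (34.1%, median 0.55). From P7 to P35, 80 members fell by more in the cerebellum than in the cortex (31.2% of all genes, median -1.04), and also 80 against the hippocampus (29.2%, median -1.11). Cortex and hippocampus differed in this step for 1 member, Rpl22 (0.33 ± 0.10, adjusted p = 0.027), compared with 7.34% of all genes called higher and 10.3% called lower.

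Compared within a period, the regions changed order. At E17.5, 56 members were called lower in the hippocampus than in the cortex (22.3% of all genes) and 55 lower in the cerebellum than in the cortex (30.3%), with medians of -0.26 and -0.27, and none higher. Without WT mouse 1 these counts were 20 and 27, and without WT mouse 4 the second was 28. With library totals in place of TMM factors they were 18 and 16. The groups did not overlap for 3 members in the first comparison and 17 in the second, all lower, against 16.2% and 36.5% of all genes. Rpl17, a large-subunit protein at the exit of the peptide tunnel, had 320 to 409 CPM in the cortex (median 356), 193 to 305 in the hippocampus (median 250) and 221 to 280 in the cerebellum (median 246), and was among those for which neither region overlapped with the cortex. Its log2 fold changes were -0.47 ± 0.10 (adjusted p = 0.0022) and -0.51 ± 0.10 (adjusted p = 7.2e-04). Between cerebellum and hippocampus no member was called, and none had an unadjusted p under 0.05 in the edgeR test, compared with 49.5% of all genes called. Leaving out 1 mouse gave up to 7 calls there (7 without WT mouse 6, 3 without WT mouse 4, 1 without WT mouse 3). In Cul3+/- mice 47 members were called lower in the hippocampus than in the cortex (25.4% of all genes), 74 lower in the cerebellum than in the cortex (28.5%) and 19 lower in the cerebellum than in the hippocampus (26.1%).

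At P7 the cerebellum stood above both other regions. There 76 members were called higher in the cerebellum than in the cortex (44.1% of all genes) and 75 higher than in the hippocampus (42.3%), with medians of 0.73 and 0.57, and 73 and 70 members did not overlap (59.7% and 56.6% of all genes). Rps6, the target of the S6 kinases, held 145 to 217 CPM in the cortex (median 200.3), 223 to 255 in the hippocampus (median 249.6) and 348 to 468 in the cerebellum (median 413), a log2 fold change of 1.06 ± 0.06 against the cortex (adjusted p = 3.5e-10), and no region overlapped with another. Rps2 and Rplp1 did not follow: against the cortex their log2 fold changes were -0.10 ± 0.06 and -0.01 ± 0.06 (adjusted p = 0.12 and 0.83). The hippocampus exceeded the cortex for 40 members (27.8% of all genes), by a median of 0.15, with no overlap for 5 (26.9% of all genes). Without WT mouse 1 or WT mouse 4 the count was 20 or 26. In Cul3+/- mice 76 members were called higher in the cerebellum than in the cortex (43.4% of all genes), 74 higher than in the hippocampus (40.2%) and 8 higher in the hippocampus than in the cortex (26.5%).

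In the adult the cerebellum stood below both other regions. Of the 81 members 68 were called lower in the cerebellum than in the cortex and 5 higher (36.5% and 38.9% of all genes), and 78 lower than in the hippocampus and 1 higher (36.8% and 38.3%), with medians of -0.36 and -0.54. The hippocampus was above the cortex for 58 members (25.5% of all genes), by a median of 0.21, with no overlap for 53 (33.9% of all genes). Rps2 held 216 to 287 CPM in the 5 cortices, 291, 294, 296, 299 and 332 in the hippocampi and 117, 133, 139, 144 and 145 in the cerebella, so that the 3 regions did not overlap, and it was lower by 0.97 ± 0.08 and 1.17 ± 0.08 in the cerebellum (adjusted p = 3.2e-07 and 5.3e-08). Rpl7l1, a paralog of Rpl7 with a role in ribosome assembly, was the exception in both pairs, higher in the cerebellum by 0.44 ± 0.05 against the cortex (adjusted p = 2.6e-06) and by 0.31 ± 0.05 against the hippocampus (adjusted p = 6.3e-05). In Cul3+/- mice the counts were 54 lower and 11 higher against the cortex (39.1% and 41% of all genes), 74 and 2 against the hippocampus (38.4% and 38.8%), and 66 higher in the hippocampus than in the cortex (30.5%).

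Some paralog pairs did not move in step. Rpl22 is an RNA-binding protein of the large subunit, and Rpl22l1 can take its place in the ribosome. Rpl22 fell in the WT cortex from 223 to 267 CPM at E17.5 (median 248) to 113 to 156 at P7 (median 143) and to 69, 70.9, 72.5, 73.2 and 77.6 at P35, by 0.79 ± 0.07 and 0.99 ± 0.07 on the log2 scale (adjusted p = 5.8e-09 and 1.3e-09). Rpl22l1 had 37.7 to 48.4 CPM (median 41.6), 29.5 to 46.7 (median 43.4) and 43.4, 43.9, 50, 52.7 and 53.1, with log2 fold changes of -0.02 ± 0.10 and 0.20 ± 0.10 (adjusted p = 0.88 and 0.097). Thus the periods did not overlap for Rpl22 and overlapped for Rpl22l1.

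The ratio of the CPM of Rpl22l1 to that of Rpl22, which is not corrected for transcript length, was 17.2% ± 0.83 at E17.5, 29.3% ± 2 at P7 and 66.9% ± 4.4 at P35 in the WT cortex. In the hippocampus it was 24.7%, 29.1% and 56.5%, and in the cerebellum 24.9%, 26.5% and 59.9% ± 11. In every region all adult ratios were above all P7 ratios. The ratio of Rpl36al, a retained copy of Rpl36a, to Rpl36a also had its highest mean in the adult, from 41.2% ± 1.2 at E17.5 to 76.4% ± 5.7 at P35 in the cortex and from 49.6% ± 1.8 to 99.8% ± 2.3 in the cerebellum. That of Rpl7l1 to Rpl7 went from 10.5% ± 0.58 to 18.5% ± 0.85 in the cortex and from 13.2% ± 0.37 to 25.6% ± 1.6 in the cerebellum. From P7 to P35 in the cerebellum both Rpl36a and Rpl36al fell, by 1.66 ± 0.10 and 0.82 ± 0.10 (edgeR test, adjusted p = 2.9e-11 and 4.1e-07). Rpl7l1 fell as well from E17.5 to P7 in the WT hippocampus. With 1 library left out its log2 fold change there lay between -0.74 and -0.60, and that of Rpl7 between -0.87 and -0.73.

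Rps27l, a paralog of Rps27 known as a target of p53, differed by region instead. In the WT cortex it was at 17.4 to 25.5 CPM at E17.5 (median 19.4), 5.57 to 10.1 at P7 (median 9.3) and 7.51 to 8.81 at P35. In the cerebellum it was at 18.7 to 27.2 CPM (median 21.5), 24.8 to 37.2 (median 30.4) and 7.25 to 12.6. At P7 no cerebellum overlapped with a cortex, and the log2 fold change between them, 1.80 ± 0.10 (adjusted p = 3.1e-10), was the largest of the 81 members in that comparison, against 0.86 ± 0.08 for Rps27 (adjusted p = 6.3e-08). The ratio of Rps27l to Rps27 lay between 6.88% and 14.1% in the group means, and was 7.1% ± 0.49 in the P7 cortex and 13.6% ± 0.55 in the P7 cerebellum.

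**Figure D3:**
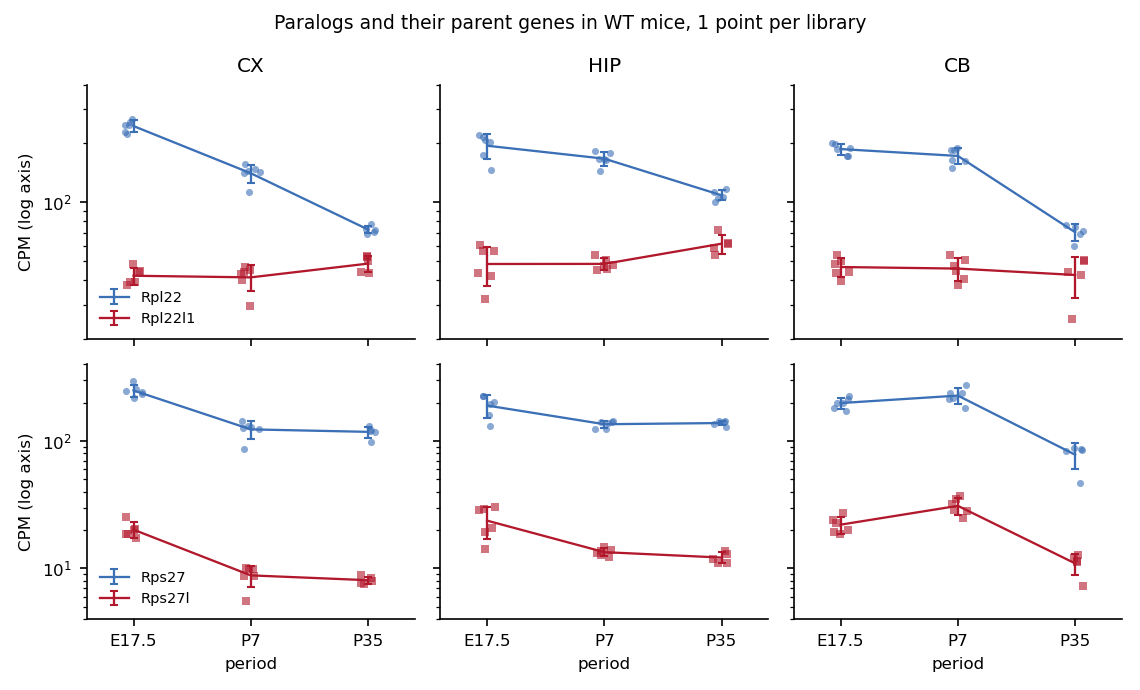
CPM of paralog pairs in single WT libraries by period and region, on a log axis, with group means (lines) and SD (bars). Rpl22 falls to 69 to 77.6 CPM in the adult cortex while Rpl22l1 lies at 43.4 to 53.1; the Rps27l points of the P7 cerebellum (24.8 to 37.2) lie above those of the P7 cortex (5.57 to 10.1).

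Within the pool, Rps2, Rplp0, Rpsa, Rpl3 and Rplp1 changed their share of the summed CPM by the most percentage points between the WT groups, a measure in which abundant members weigh most. Rps2 made up 3.48% of the pool in the P7 cortex and 1.47% in the adult cerebellum. Rplp0 made up 3.29% in the E17.5 cortex and 1.38% in the adult cortex. For Rpsa the highest and lowest means were 4.16% (P7 cortex) and 2.43% (adult cerebellum), for Rpl3 3.92% (adult hippocampus) and 2.28% (E17.5 cortex), and for Rplp1 2.49% (P7 cortex) and 1.37% (E17.5 cortex). The P7 cortex thus held the highest shares of Rps2, Rpsa and Rplp1. As a ratio, less abundant members such as Rps16 (0.112% to 0.476%) and Rpl22l1 (0.164% to 0.455%) changed by more than Rps2.

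**Figure D4:**
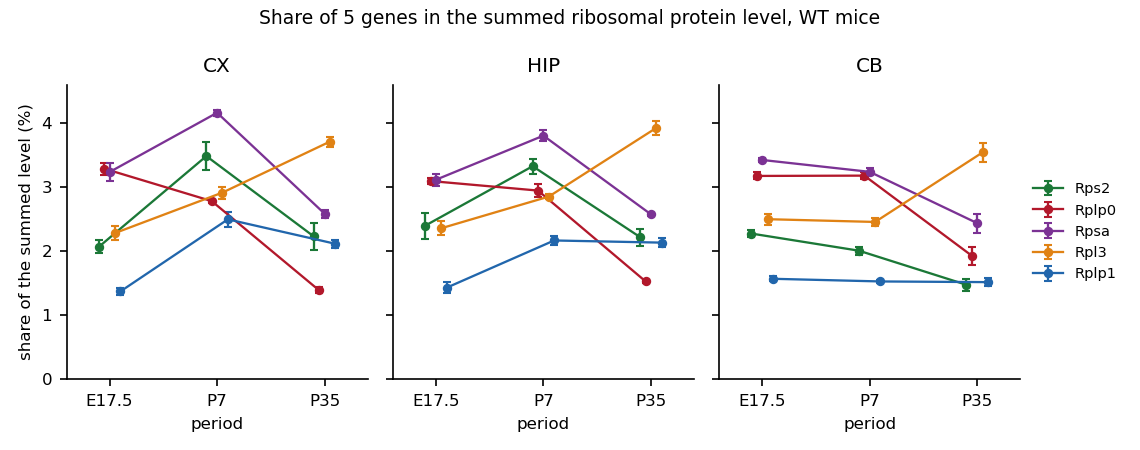
Share of the summed member CPM (percent) taken by Rps2, Rplp0, Rpsa, Rpl3 and Rplp1 in WT libraries by period and region, as group mean and SD. Rps2 ranges from a mean of 3.48% in the P7 cortex to 1.47% in the adult cerebellum, and Rplp0 from 3.29% in the E17.5 cortex to 1.38% in the adult cortex.

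Counts of 2 members need care. Rps16 varied far more than the other members at E17.5: in the WT hippocampus its libraries held 1.55, 7.54, 17.8, 17.9, 19.2 and 79.8 CPM, and in the WT cerebellum 8.52, 8.71, 13.5, 32.7, 37.2 and 56.8. The 2 pseudogene rows named after it together held at most 2.16 CPM in any of these 12 libraries, and copies under other symbols were not counted. Its rise of 1.82 ± 0.35 from E17.5 to P7 in the WT cerebellum (adjusted p = 1.7e-04), the largest among the members, rests on these values. For Rpl27 the 3 pseudogene rows held more counts than the gene itself, for example 142 to 188 CPM against 39.8 to 63.9 in the WT cerebellum at P7. Its fall from E17.5 to P7 in the WT cerebellum, of 0.62 ± 0.11, became a rise of 0.26 ± 0.11 (adjusted p = 0.044) when these rows were added to the gene, and its fall of 1.37 ± 0.12 in the cortex became one of 0.75 ± 0.11. From P7 to P35 its log2 fold change went from 0.07 (adjusted p = 0.63) to -0.65 ± 0.12 (adjusted p = 1.1e-04) in the cortex and from 0.18 (adjusted p = 0.22) to -0.59 ± 0.11 (adjusted p = 2e-04) in the hippocampus. Thus the direction of a called change of Rpl27 depended on how reads were divided between gene and copies in the first cerebellar step. In the second step of cortex and hippocampus, values that were not called became called falls. The first-step falls in cortex and hippocampus kept their direction (-1.14 and then -0.39 in the hippocampus, adjusted p = 0.0028 with the rows added). So did the fall in the second cerebellar step (-0.66 and then -1.57).

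Loss of 1 copy of Cul3 gave no called member in any of the 9 combinations of period and region (0 of 81 each), where Cul3 itself was the only gene called (1 gene, which is 0.00603%, 0.00586% and 0.00568% of the genes tested at E17.5 in cortex, hippocampus and cerebellum, 0.00566%, 0.00563% and 0.0057% at P7, and 0.00569%, 0.00584% and 0.00584% at P35). The counts of members with an unadjusted p under 0.05 in the edgeR test were 1 in the E17.5 cortex (Rps28), 1 in the adult hippocampus (Rpl36) and 34 in the adult cerebellum, and 0 in the other 6. Of all genes, 1.67%, 2.29% and 3.5% were under this p at E17.5 in cortex, hippocampus and cerebellum, 3.22%, 5.05% and 4.89% at P7, and 3.66%, 6.25% and 14.4% at P35. DESeq2 called 1 member, in the adult cerebellum, and the fit with 3 factors of unwanted variation (RUVs) called 2 members lower in the P7 cerebellum, Rpl41 (-0.23 ± 0.06, adjusted p = 0.065) and Rps27l (-0.20 ± 0.06, adjusted p = 0.093). The median log2 fold changes of Cul3+/- against WT were 0.13, 0.17 and 0.01 at E17.5 in cortex, hippocampus and cerebellum, 0.08, 0.02 and -0.07 at P7, and 0.01, -0.02 and 0.18 at P35. Single libraries moved these medians by more than 1.5 times: without Cul3+/- mouse 4 they were 0.05 in the E17.5 cortex and 0.05 in the E17.5 hippocampus, which gave 0.09 without WT mouse 6, without WT mouse 4 the P7 cortex gave 0.0091, and the P7 cerebellum gave -0.17 without Cul3+/- mouse 1 and 0.0031 without Cul3+/- mouse 3. With 1 library left out, the medians lay between -0.01 and 0.04 in the E17.5 cerebellum, 0.0016 and 0.06 in the P7 hippocampus, -0.02 and 0.03 in the adult cortex, and -0.04 and -0.0028 in the adult hippocampus. At E17.5 in the cortex, where all 6 pairs of mice with the same number deviated together, a fit with the number as a block called 1 member among 55 genes in all.

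The adult cerebellum gave the most unequal values. A shared direction of the members was not particular to it: 80 of 81 members were above WT in the E17.5 cortex, 79 in the E17.5 hippocampus, 81 in the P7 cortex and 80 in the adult cerebellum, and 79 were below WT in the P7 cerebellum. In the adult cerebellum 34 members had an unadjusted p under 0.05, all of them higher, compared with 14.4% of all genes in both directions and 5.71% higher. The groups did not overlap for 14 members, all higher in Cul3+/-, against 3.26% of all genes. Rpl18, of the large subunit, had the smallest p: the WT cerebella held 74.3, 87.4, 88.9, 89 and 89.1 CPM and the Cul3+/- cerebella 93.8, 100, 103, 106 and 107, with no overlap. Its log2 fold change was 0.21 ± 0.06 (adjusted p = 0.293), and DESeq2 gave it an adjusted p of 0.0628. Rpl8 (0.17 ± 0.06, adjusted p = 0.304) and Rplp2 (0.19 ± 0.07) followed.

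The size of these adult differences rests in part on the library of WT mouse 3. Its summed level of 7288 CPM was the lowest of the 5, and mitochondrial transcripts held 7.86% of its counts, against 4.51% to 4.90% in the other 4 WT cerebella and 3.18% to 4.82% in the Cul3+/- cerebella. Without it the median log2 fold change of the members was 0.10, with 39 at an unadjusted p under 0.05 (edgeR test). Without Cul3+/- mouse 1 this count was 8. It was 13, 23 and 14 without Cul3+/- mice 3, 5 and 6, and 43 without mouse 2. With library totals in place of TMM factors it was 16. After removal of 3 RUVs factors the median was 0.07, with 3 members under that p. Summed markers of most other cells, none of them at 0, had higher medians in the adult Cul3+/- than in the WT cerebella, with overlapping ranges. In WT and Cul3+/-, the oligodendrocyte markers were at 2582 to 5600 and 4811 to 6105 CPM, and the microglia markers at 63.2 to 78.8 and 76.1 to 88.5. The astrocyte markers were at 2638 to 2880 and 2753 to 3173, and the proliferating progenitor markers at 37.6 to 43.1 and 43.1 to 52.1. Endothelial (118 to 134 and 121 to 140) and neuron markers (3949 to 4350 and 4152 to 4434) moved alike. The erythroid markers had a lower median in Cul3+/- (464 in WT and 458). So did the cerebellum markers (3076 in WT and 2915) and the hippocampus markers (188 and 185), also with overlapping ranges. The choroid plexus markers ranged from 5.22 to 3076 CPM in WT (median 12.2) and from 5.95 to 2099 in Cul3+/- cerebella (median 515). The part of the mitochondrial share and of these markers in the difference was not tested. The test of whether the genotype difference itself differs between regions or periods called no member and no other gene, with 48 members under an unadjusted p of 0.05 for adult cerebellum against hippocampus (smallest adjusted p 0.176, 19.3% of all genes under that p), 26 against cortex (18.9%) and 38 for the cerebellum from P7 to P35 (15.7%), all in the positive direction. At P7 it was 15 members for cerebellum against cortex, all in the negative direction (5.81% of all genes), and in the other comparisons of this kind it was 0.

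**Figure D5:**
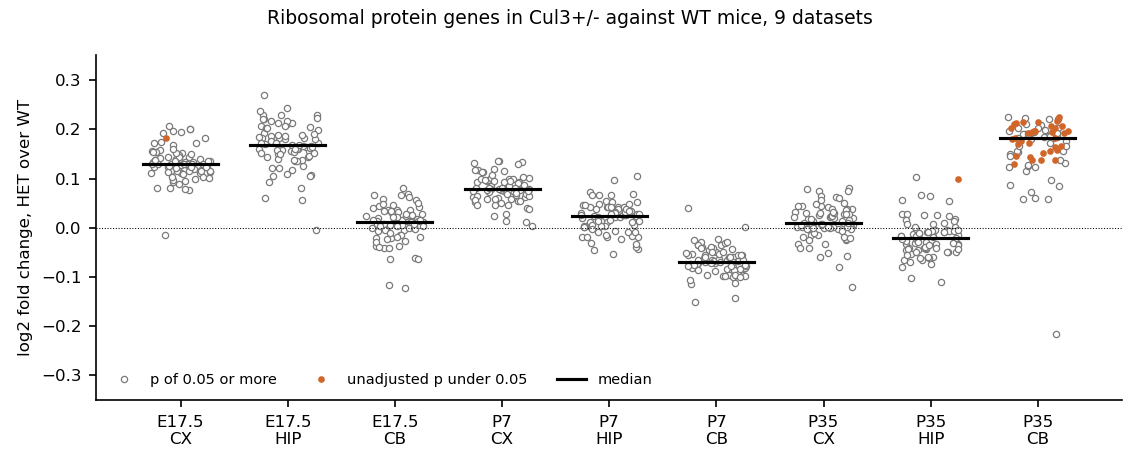
log2 fold change of Cul3+/- against WT for each of the 81 tested members (points) in the 9 combinations of period and region, with the median as a line and filled points for an unadjusted p under 0.05. Rps16 lies outside the axis at E17.5 in the hippocampus (-0.98) and cerebellum (-0.54). No point passed the adjusted p of 0.1; the median lies between -0.07 (P7 cerebellum) and 0.18 (adult cerebellum).

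Other genes of the translation machinery were read from fixed lists beside the members. Fau and Rack1, ribosome components whose symbols fall outside the rule, were both called lower in the WT cortex from E17.5 to P7 and in the WT cerebellum from P7 to P35, where Rack1, a scaffold on the small subunit, fell by 1.26 ± 0.09 and 1.64 ± 0.09. Of 17 translation factors and other known TOP mRNAs, 16 were called lower in the first cortical step (median -0.70) and 17 in the second cerebellar step (median -1.15), and 10 were called higher and 1 lower in the cerebellum from E17.5 to P7. Of all genes, 40.6% were called lower in the first of these steps, 39.4% lower in the second, and 35.7% higher in the third. Eef1a1, the ubiquitous elongation factor, fell by 1.89 ± 0.09 in the cerebellum from P7 to P35, whereas Eef1a2, the isoform of mature neurons and muscle, rose by 2.57 ± 0.07 there and by 2.46 ± 0.11 in the first cortical step.

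Ribosome assembly and mitochondrial ribosomes were less uniform. The shares of all genes to set beside their counts are 40.6% lower and 41.3% higher in the first cortical step, 35.5% and 35.7% in the first cerebellar step, and 39.4% and 40% in the second cerebellar step. Of 43 ribosome biogenesis genes, 30 were called lower and 7 higher in the first cortical step (median -0.43), and 34 and 6 in the second cerebellar step (median -0.46), where fibrillarin (Fbl), the methyltransferase that modifies ribosomal RNA, fell by 1.79 ± 0.07. Of 78 genes of mitochondrial ribosomal proteins, 32 were called lower, a share near that of all genes, and 20 higher in the first cortical step (median -0.10), 56 higher and 2 lower in the first cerebellar step (median 0.23), and 41 lower and 12 higher in the second (median -0.15). Of 13 regulators of TOP mRNAs and mTOR signalling, 7 were lower and 4 higher in the first cortical step and 8 higher and 4 lower in the second cerebellar step. Mtor itself rose by 0.37 ± 0.05 and 0.67 ± 0.08 in those steps, in which the ribosomal protein genes fell. Mycn, a transcription factor known to drive ribosome production in progenitors, fell by 1.60 ± 0.11 in the first cortical step and fell by 4.58 ± 0.11 in the second cerebellar step, and its log2 fold change in the cerebellum from E17.5 to P7 was 0.05 ± 0.08. Across the 81 members the log2 fold changes of the WT steps had a Spearman rho of -0.20 to 0.04 with transcript length, which is given as a description.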

How the data were processed

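Total RNA, depleted of ribosomal RNA and prepared with a stranded kit, was sequenced by the authors, who removed adapters (Cutadapt 1.14), mapped to GRCm38.p5, also named mm10 (STAR 2.5.3a), and took expected counts per gene from RSEM 1.3. The deposited expected counts (5.765% of values not whole) were rounded. RSEM divides reads shared with near-identical copies, so values of members with pseudogenes can be split. Symbols, biotypes and lengths came from GENCODE vM21 and promoters from RefSeq GRCm38.p6. Library totals (15126114 to 44411282) set the counting error.

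Genes were tested with the quasi-likelihood test of edgeR 4.0.16 in R 4.3.3 on TMM-scaled counts (filterByExpr minimum of 10, 15 in total), adjusted over all genes by Benjamini-Hochberg and called at 0.1. Region pairs used the mouse as a block. The study's own fit used sex and RUVs factors; sex is not in the labels. SEs are the absolute log2 fold change over the square root of F. Members and lists were chosen with earlier results of these data known. Genes were named by a fixed rule: paralog pairs, the 3 largest called changes in either direction with no overlap, the 3 smallest p by genotype, the extremes of level per length, and the 5 largest ranges of share; Rps16, Rpl27 as a pseudogene case and other members that stayed level were added after their values were seen. Some named genes are not reported here. Alternatives were DESeq2 1.42.0, upper-quartile scaling, library totals, no filter, RUVs with 3 factors, pseudogene rows added, a replicate block, and each library left out; leaving out mitochondrially encoded genes was added after seeing the data. Mice are separate animals. WT and Cul3+/- mice of the same number met the criterion for pairing, a correlation of their deviations over 0.1 in every pair, in the E17.5 cortex (0.113 to 0.759 in 6 pairs); in the other 8 comparisons 1 to 5 pairs were over 0.1.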

Additional observations from a re-analysis of the deposited data

Results flagged for a closer look

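A library stood far from the others of its group (Dixon's criterion at 95%) in 16 of 126 groups tested, over 7 quantities. Chance flags about 1 in 20 groups, and the quantities move together, so that 4 libraries account for 13 of these flags.

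The summed level of the ribosomal protein genes was 37419 CPM in the E17.5 Cul3+/- cortex of mouse 4 and 32684 in its hippocampus, both the highest of their groups. In the same cortex Rplp0 was at 1254 CPM, Rps27 at 376 and Rps27l at 34.1. The summed level was 10864 CPM in the P7 WT cortex of mouse 4, the lowest of its group, with Rplp0 at 304, Rpl22 at 113, Rps27 at 86.1 and Rps27l at 5.57. It was 7288 CPM in the adult WT cerebellum of mouse 3, with Rps27 at 46.8 and Rps27l at 7.25. Mitochondrially encoded transcripts held 2.67% of the counts in that P7 cortex and 7.86% in that adult cerebellum, the highest of their groups, and their part was not tested. Rps16 was at 79.8 CPM in the E17.5 WT hippocampus of mouse 3, 38.1 in the E17.5 Cul3+/- hippocampus of mouse 2 and 17.45 in the adult Cul3+/- cerebellum of mouse 1.

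The period steps of the members differed between regions by the interaction test in WT mice. From E17.5 to P7 the members called were 72 for hippocampus against cortex, 77 for cerebellum against cortex and 71 for cerebellum against hippocampus. Of all genes, 38.6%, 69.6% and 65.9% were called in these tests. From P7 to P35 the members called were 1, 80 and 80, against 17.6%, 61% and 57.5% of all genes.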

How the results depend on the processing

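Of the counts of called members, 186 kept within 1.5 times their value under other settings and 9 did not, and 214 and 8 when 1 library or mouse was left out. The medians moved by less than 1 SD between replicate libraries in 193 of 195 and in all 222 cases; this SD is wide beside the genotype medians, several of which moved by over 1.5 times. Members called by genotype, none in the main test, numbered 1 with the replicate block in the E17.5 cortex, 2 with RUVs in the P7 cerebellum (Rpl41 and Rps27l) and 1 with DESeq2 in the adult cerebellum (Rpl18). With library totals the median step from P7 to P35 in WT mice was -0.44 in the hippocampus and -1.57 in the cerebellum, where the median of all genes also moved by over 0.1, to -0.18 and -0.19. Under library totals the members lower at E17.5 were 18 (hippocampus against cortex), 16 (cerebellum against cortex) and 2 (cerebellum against hippocampus), and those higher in the hippocampus than in the cortex at P7 were 63; upper-quartile scaling gave 64 and the fit without the mouse block, written as no replicate block, 20. With 1 mouse left out, the ranges were 20 to 57, 27 to 66, 0 to 7 (called in either direction) and, at P7, 20 to 49. The shares of all genes called in these fits are not given here. The gene values kept their direction and call in 622 cases, lost the call in 8, gained it in 1 and, among the genes named for a comparison, reversed in 2: with pseudogene rows added, Rpl27 from E17.5 to P7 in the WT cerebellum was 0.26, and Rpl27 by genotype in the E17.5 cerebellum 0.0013. Rpl27, not called from P7 to P35 in the cortex and hippocampus, was then called lower (-0.65 and -0.59). The cause was not tested. Outside the E17.5 cortex the replicate number changed no genotype call. Rpl3l, Rpl10l and Rpl39l had too few counts to test.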
